A study of Mus musculus with 237 samples.

Results

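Plagl1 and 8 further imprinted growth genes, Igf2, H19, Igf2r, Cdkn1c, Mest, Peg3, Grb10 and Gnas, were followed through single cells of the embryonic mouse kidney. They are 9 of 36186 gene entries in the deposited expression table, and each symbol stands on 1 entry. They were taken by name as a group known for imprinting and growth, and the group was chosen by the differences of Plagl1 in mean log2(RPKM + 1) between the same cells, so the levels that follow are a description and were not tested. The cells were freed by protease digestion, enriched by flow sorting (FACS), captured one by one in a Fluidigm C1 device and profiled by RNA sequencing. All embryos were of mixed strain. On embryonic day E18.5 the labels give 74 wild-type cap mesenchyme and derived cells, 71 wild-type interstitial cells whose titles carry FoxD1 GCE, and 44 Pax2 mutant cap mesenchyme cells. On E13.5 they give 18 wild-type cap mesenchyme and derived cells, and 29 from Pax2 mutants. Nephrons form from cap mesenchyme, which lies within the stroma called interstitium. Pax2 is a transcription factor of the nephron lineage. The labels record the molecule as genomic DNA, although their protocols describe RNA sequencing. The mutant allele, the marker used for sorting and the number of embryos are not given in the sources used here. Each group therefore counts as 1 sample, no test between groups was possible, and every SD below is a spread between cells.

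An imprinted gene is transcribed mainly from the copy inherited from one parent, and many such genes act on fetal growth. Plagl1 (also called Zac1), Igf2, Mest and Peg3 are known as paternally expressed in the mouse embryo, and H19, Igf2r, Cdkn1c and, in most tissues, Grb10 as maternally expressed. Gnas is transcribed from both copies in most tissues, and its locus also makes imprinted transcripts from other promoters. Plagl1 encodes a zinc finger transcription factor that has been described as a regulator of other imprinted genes, Igf2, H19 and Cdkn1c among them. The expression values are sums over both parental copies, so allelic use was not measured.

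Of the 9 genes, 4 lie on chromosome 7 of mm10: Peg3 (6705960 to 6730419), H19 (142575531 to 142578146), Igf2 (142650768 to 142661035) and Cdkn1c (143458339 to 143461050). H19 and Igf2 are 72622 bp apart, and Igf2 and Cdkn1c 797304 bp. Plagl1 spans chromosome 10, 13060504 to 13131695, Igf2r chromosome 17, 12682406 to 12769706, Mest chromosome 6, 30733506 to 30748466, Grb10 chromosome 11, 11930499 to 12037420, and Gnas chromosome 2, 174284320 to 174346742. RefSeq (GRCm38.p6) gave 16 promoter windows of 300 bases, from 250 before to 50 after a transcription start, for 7 of the genes. No window was available for H19 and Cdkn1c, so their promoters were not searched. The Plagl1 window (chr10:13090582-13090881, plus strand) is shown because the results turn on this gene; its 26 CpG dinucleotides, the sites of DNA methylation, are in capitals, and 70.67% of its bases are G or C against a median of 52.67% over all windows.
Plagl1 promoter: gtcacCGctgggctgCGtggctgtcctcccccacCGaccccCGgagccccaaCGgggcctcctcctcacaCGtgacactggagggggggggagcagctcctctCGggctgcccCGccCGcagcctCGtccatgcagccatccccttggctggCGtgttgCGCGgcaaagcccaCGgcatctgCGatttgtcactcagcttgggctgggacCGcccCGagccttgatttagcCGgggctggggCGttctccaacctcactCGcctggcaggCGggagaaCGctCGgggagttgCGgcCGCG
A palindrome associated with DNA binding by Plagl1, GGGGCCCC, was searched in all windows (its reverse complement is the same). It was present in 352 of 32817 windows (1.07%), and among the 16 windows of these genes only in that of Peg3 (chr7:6730370-6730669, minus strand), where it is in capitals.
Peg3 promoter: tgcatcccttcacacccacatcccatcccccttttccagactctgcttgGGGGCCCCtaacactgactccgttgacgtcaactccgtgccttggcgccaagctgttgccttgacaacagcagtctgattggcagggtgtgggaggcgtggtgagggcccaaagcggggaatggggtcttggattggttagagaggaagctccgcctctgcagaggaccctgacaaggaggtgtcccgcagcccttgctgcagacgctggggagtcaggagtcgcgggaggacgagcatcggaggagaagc
A spaced form, GGGGC and GGG with 7 bases between them on either strand, was in 8.46% of all windows and in 0 of the 16. These matches describe letters in short windows, and binding was not measured. H19 is also the precursor RNA of miR-675, and both mature forms from RefSeq are shown, with the seed (bases 2 to 8) in capitals, since H19 was among the genes that most often went with Plagl1.
miR-675-5p: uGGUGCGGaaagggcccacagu
miR-675-3p: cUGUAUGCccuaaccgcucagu
The table's own Mir675 entry is listed at 0 in all 236 grouped cells, so H19 below means the long transcript. Other entries overlap Igf2 (Mir483, Igf2os), Mest (Mir335, Copg2), Peg3 (Peg3os) and Gnas (Nespos), and without a stated strand the reads of each such pair cannot be separated.

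The labels were checked against markers. Pax2 reached 1 RPKM, the detection limit used here (reads scaled to transcript length and to the reads of the cell), at E18.5 in 56 of 74 cap, 18 of 71 interstitium and 0 of 44 mutant cells, and at E13.5 in 15 of 18 cap and 17 of 29 mutant cells. A score, the mean log2(RPKM + 1) over 8 markers of each lineage, was higher for the interstitium than for nephron progenitors at E18.5 in 7 of 74 cap, 56 of 71 interstitium and all 44 mutant cells, and at E13.5 in 3 of 18 cap and 22 of 29 mutant cells. The cells labelled as E18.5 mutant cap mesenchyme thus went against their label: Six2 was found in 1 of 44 and Cited1 in 0 of 44. For Cited1, as for Pax2, the count of 0 allows a share of up to 6.82% by counting error. There were 3 cells with a score of 4 or more for another lineage, namely 1 E13.5 cap cell for endothelium, 1 E18.5 mutant cell for immune cells and 1 E13.5 mutant cell for ureteric epithelium. They hold some of the extremes below: the endothelial cell the highest Mest and Gnas and the lowest Peg3 and Grb10 of the E13.5 cap, and the immune cell the lowest Igf2, H19 and Mest and the highest Gnas of the E18.5 mutant. Without all 3, the counts of genes called below are the same in 5 of 6 comparisons, and the other is given there. Median genes per cell lay between 3643 in E18.5 mutant and 5566 in E13.5 cap cells. Each group carries a date of its own in its titles, so date and group cannot be told apart, and the E18.5 mutant cells are alone in pool 4. Cells of 3 groups carried mainly Xist (E18.5 cap, both mutant groups) and those of the other two mainly Y-linked transcripts.

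Plagl1 was high in interstitium and E18.5 mutant cells and low or at 0 in most cap cells. In E18.5 cap cells it ranged from 0 to 148 RPKM with a median of 0.0802, and 22 of 74 cells reached 1 RPKM (29.7%, exact Clopper-Pearson 95% interval 19.7 to 41.5, counting error only). Among interstitium cells the range was 0 to 1104 with a median of 85.2, and 67 of 71 cells had it (94.4%, 86.2 to 98.4). In E18.5 mutant cells the range was 0 to 917 and the median 186, with 41 of 44 cells positive (93.2%, 81.3 to 98.6). The E13.5 groups were low, with medians of 0.839 in cap cells (0 to 92.6, 8 of 18 positive) and 0.584 in mutant cells (0 to 473, 12 of 29 positive). All 5 ranges overlap, and what differs is the share of high cells: 64 RPKM or more was reached in 6 of 74, 41 of 71, 30 of 44, 1 of 18 and 6 of 29 cells in the same order. Of the 29 E13.5 mutant cells, 17 were under 1 RPKM, 6 lay between 1 and 64 and 6 were at 64 or more. The upper quartile of this group was 58.8 RPKM. On the log2(RPKM + 1) scale the order of the means was E18.5 mutant (6.69 ± 2.76, SD between cells), interstitium (6.01 ± 2.57), E13.5 mutant (2.47 ± 3.10), E13.5 cap (1.60 ± 1.91) and E18.5 cap (1.25 ± 2.16). Only the step from interstitium to E13.5 mutant, 3.54, was larger than the SD of both neighbours.

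Cdkn1c, which encodes p57, an inhibitor of cyclin-dependent kinases, had the same 2 groups on top but was present in nearly every cell outside the E18.5 cap. It ranged from 0 to 335 RPKM with a median of 22.3 in E18.5 cap cells, from 3.66 to 2289 (median 307) in interstitium cells and from 0.63 to 4327 (median 814) in E18.5 mutant cells. At E13.5 the ranges were 13.9 to 689 (median 154) in cap cells and 0.655 to 1953 (median 341) in mutant cells. Among the E18.5 mutant cells 42 of 44 were at 64 RPKM or more and the other two were under 1 RPKM, one of them the cell with immune markers. In the order of the means (9.27, 7.95, 7.54, 6.88 and 4.09) the last step, from E13.5 cap to E18.5 cap, was larger than both SDs at 2.79. E18.5 cap cells were thus the low group for Cdkn1c, whereas the E18.5 cap and both E13.5 groups had low medians of Plagl1.

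Igf2, the insulin-like growth factor 2 ligand, was found in 89.2% to 100% of the cells of every group. Its lowest, median and highest values were 0, 21.04 and 607 RPKM in E18.5 cap cells, 1.31, 72.8 and 1751 in interstitium cells and 0, 157 and 2271 in E18.5 mutant cells. In E13.5 cap cells they were 23, 70.9 and 375, and in E13.5 mutant cells 0, 22.9 and 928. No E13.5 cap cell was under 23 RPKM, while the other ranges reach down to 1.31 or 0, and all ranges overlap. H19, the long non-coding RNA of the same locus, was higher than Igf2 in most cells. Its lowest, median and highest values were 0.269, 100.4 and 1224 in E18.5 cap, 14.5, 324 and 2092 in interstitium, 20.2, 449 and 2070.3 in mutant cells of E18.5. At E13.5 they were 46.3, 274 and 1806 in cap and 0, 277 and 4054.5 in mutant cells. Both genes ranked the groups alike by mean log2(RPKM + 1). The order ran from E18.5 mutant over E13.5 cap and interstitium to E13.5 mutant and E18.5 cap cells. No step between neighbours in that order exceeded the SDs. By median the orders were not the same. Interstitium then stood above E13.5 cap cells for both genes, and E13.5 mutant just above E13.5 cap cells for H19 only. Within a cell, H19 minus Igf2 averaged 1.91 ± 2.59, 1.84 ± 1.75, 1.72 ± 2.003, 1.83 ± 1.35 and 2.52 ± 3.11 log2 units, in the order cap, interstitium and mutant at E18.5, then cap and mutant at E13.5. The mean excess of H19 over Igf2 thus differed between groups by less than the SD of any of them.

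Igf2r, the receptor that takes up Igf2 for degradation, had lower levels than its ligand in most cells. Its lowest, median and highest values were 0, 5.76 and 52.1 RPKM in E18.5 cap, 0.267, 10.6 and 261 in interstitium, 0.24, 36.5 and 194 in mutant cells of E18.5. At E13.5 they were 1.08, 7.77 and 144 in cap and 0, 9.87 and 127 in mutant cells. The E18.5 mutant cells had the highest median, and their range overlaps every other. Reads of Airn, the antisense RNA that overlaps Igf2r, cannot be told apart from it where the counting does not use strand. Whether it does is not stated. The Airn entry had means of 0.46 in cap, 0.89 in interstitium and 1.47 log2 units in mutant cells at E18.5. At E13.5 they were 1.03 in cap and 1.36 in mutant cells. The groups with the lowest and the highest mean were thus the same for Airn and Igf2r. Grb10, an adaptor that dampens signalling from the insulin and IGF receptors, varied least between groups. Its lowest, median and highest values were 0, 64.95 and 525 RPKM in E18.5 cap, 0, 33.6 and 200.03 in interstitium, 0, 50.7 and 427 in mutant cells of E18.5. At E13.5 they were 7.32, 53.1 and 213.5 in cap and 1.41, 30.3 and 272 in mutant cells. Its 5 group means lay between 4.95 and 5.90.

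Mest, a mesodermally expressed gene of the hydrolase fold, was the most abundant of the 9 genes in interstitium cells. There it ranged from 117 to 3894 RPKM with a median of 1099, and its SD of 0.87 log2 units was smaller than that of any other of these genes in any group. The lowest, median and highest values elsewhere were 0, 405 and 1705 in E18.5 cap, 0.465, 684 and 2457 in mutant cells of E18.5. At E13.5 they were 1.97, 294 and 2086 in cap and 0, 207 and 2157 in mutant cells. The interstitium group had both the highest minimum and the highest maximum, and its range overlaps all others. Peg3, a zinc finger gene, had lowest, median and highest values of 0, 42.6 and 736 in E18.5 cap, 0, 102 and 511 in interstitium, 0, 62.8 and 1051 in mutant cells of E18.5. At E13.5 they were 0.0643, 128 and 589.8 in cap and 0, 47.3 and 266 in mutant cells. It had the widest spread in E18.5 mutant cells (SD 3.18), with 22 of 44 cells at 64 RPKM or more and 7 under 1. Gnas, whose main product is the stimulatory G protein alpha subunit, had values of 0, 18.3 and 259.9 in E18.5 cap, 2.11, 31.6 and 437.5 in interstitium, 9.34, 74.6 and 333 in mutant cells of E18.5. At E13.5 they were 4.35, 17.2 and 270.2 in cap and 1.07, 33.7 and 159.6 in mutant cells. Its median was highest in E18.5 mutant cells, again with overlapping ranges.

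**Figure D1:**
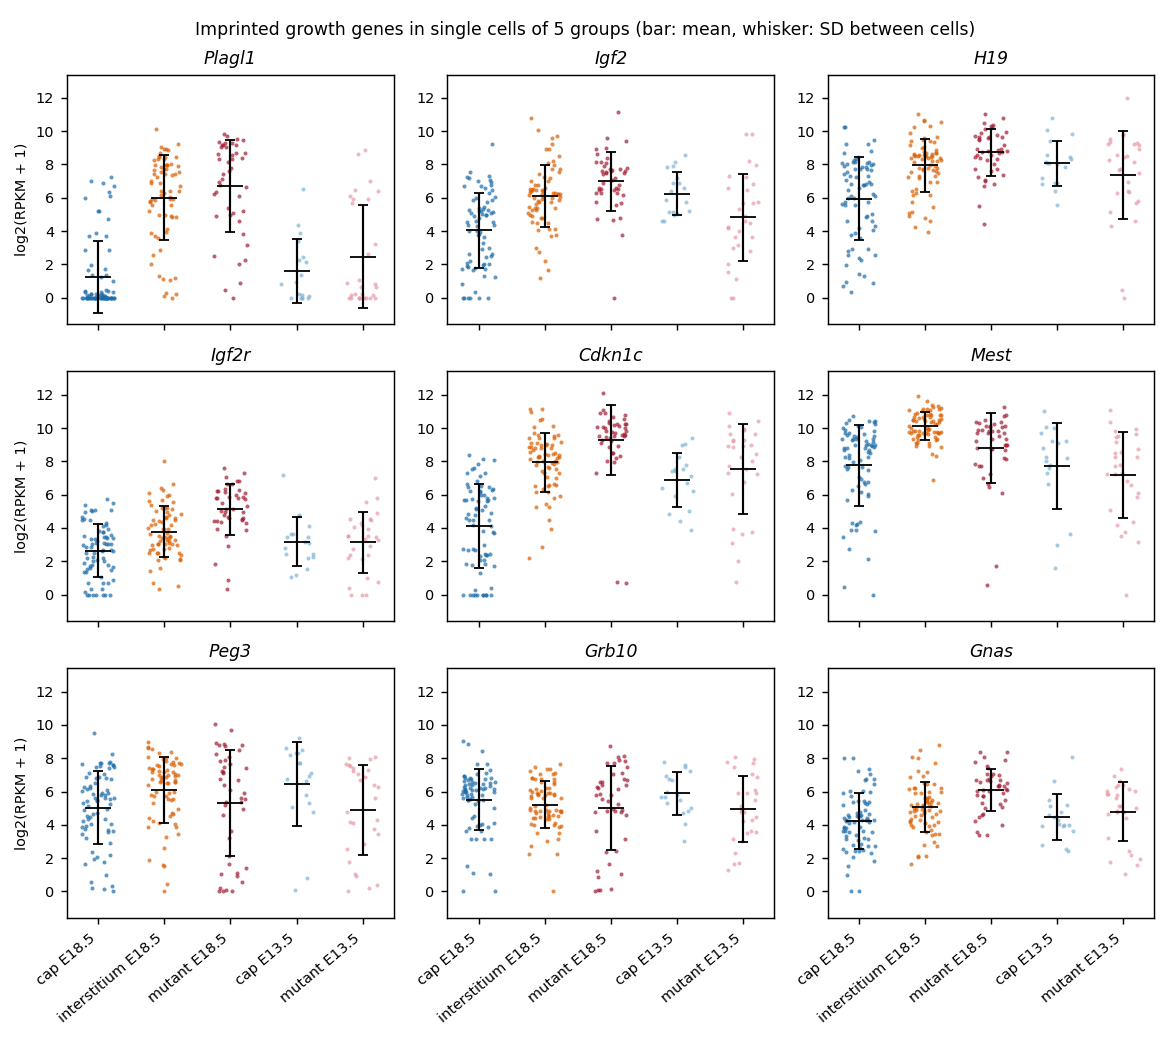
Each point is 1 cell, with log2(RPKM + 1) of the named gene on the y axis and the 5 groups on the x axis; bars are means and whiskers the SD between cells. Plagl1 is at or near 0 in most cap cells and spread up to 1104 RPKM in interstitium cells, while Grb10 sits at similar levels in all groups.

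All 9 genes together were detected at E18.5 in 13 of 74 cap, 61 of 71 interstitium and 31 of 44 mutant cells, and at E13.5 in 7 of 18 cap and 9 of 29 mutant cells. Their summed RPKM was a median of 0.21%, 0.603%, 0.811%, 0.327% and 0.378% of the RPKM of a cell in the same order.

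Interstitium and cap cells at E18.5 show how these genes differ between the 2 wild-type lineages. A gene was called when the means differed by 1 log2 unit or more. Interstitium cells were higher for 7 of the 9 genes, where 5.94% of the 11219 entries tested were higher, and lower for 0, where 2.7% were lower. The largest differences were those of Plagl1 (4.75, which served to choose the group) and Cdkn1c (3.86), followed by Mest (2.37), Igf2 (2.07), H19 (2.0), Igf2r (1.16) and Peg3 (1.07). Gnas, at 0.85, and Grb10, at -0.30, were not called. Of the 4 paternally expressed genes 4 were higher, and of the 4 maternally expressed genes 3. The 22 interstitium cells that share pool 2 with the cap cells gave 7 higher as well, with Plagl1 at 5.07 and Cdkn1c at 3.85, although their title date differs from that of the cap cells. Sex differed between these groups (Y-linked transcripts alone in 70 of 71 interstitium cells, Xist alone in 67 of 74 cap cells), and its part in the result was not tested.

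The Pax2 mutant cells at E18.5 were above the cap cells for most of these genes. Against the same E18.5 cap cells, 7 of 9 were higher, where 4.51% of 11100 entries were higher, and 0 were lower, where 23.2% were lower. Plagl1 (5.44) and Cdkn1c (5.18) led again, then Igf2 (2.96), H19 (2.77), Igf2r (2.49), Gnas (1.86) and Mest (1.06), while Peg3 (0.26) and Grb10 (-0.53) were not called. All entries tested had a median difference of -0.40, which median-ratio scaling moved to -0.29, and with that scaling Plagl1 stood at 5.62 and Cdkn1c at 5.47. E18.5 mutant cells also had fewer genes per cell (median 3643 against 5210.5) and a lower mean score over 12 S phase genes (1.16 against 3.97) and over 12 G2 and M phase genes (0.51 against 3.63). Their part in the result was not tested. Among cells with 4000 to 6000 genes, 12 mutant and 43 cap cells, 7 genes were again higher.

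Set directly against the interstitium, E18.5 mutant cells were higher for 3 of 9 genes, where 2.05% of 10903 entries were higher, and lower for 1, where 23.4% were lower. The higher ones were Igf2r (1.34), Cdkn1c (1.32) and Gnas (1.01), the lower one was Mest (-1.31), and Plagl1 (0.68), Igf2 (0.89) and H19 (0.77) were not called. With median-ratio scaling 5 were higher and 1 lower, as Igf2 (1.11) and H19 (1.001) then passed the threshold, and Plagl1 stood at 0.905. Only 1 higher and 1 lower were called against the 56 interstitium cells whose interstitium score was the higher one (Igf2r 1.07, Mest -1.44), with Plagl1 at 0.06. Sex differed here as well (Xist alone in 42 of 44 mutant cells, Y-linked transcripts alone in 70 of 71 interstitium cells). Median genes per cell were 3643 and 5178, mean S phase scores 1.16 and 3.97, and no pool was shared. The part of these differences in the result was not tested. These 3 comparisons share groups, so their values are not independent of each other.

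At E13.5 few of these genes passed the threshold between mutant and cap cells. The mutant was higher for 0 of 9, where 1.43% of 11449 entries were higher, and lower for 2, Igf2 (-1.42) and Peg3 (-1.55), where 27.7% were lower, so that 22.2% of the genes stands near the background share. Plagl1 differed by 0.87, Cdkn1c by 0.65, Gnas by 0.35, Igf2r by -0.04, Mest by -0.55, H19 by -0.73 and Grb10 by -0.95. By the ratio of group mean RPKM, in which the highest cells weigh most, 2 were higher, Plagl1 at 2.41 and Cdkn1c at 1.265, and 1 was lower, Peg3 at -1.08. Sex differed here too (Xist alone in 27 of 29 mutant cells, Y-linked transcripts alone in 17 of 18 cap cells), and its part was not tested. The medians of genes per cell were 4560 and 5566, and among cells with 4000 to 6000 genes (19 and 15) 2 were higher and 1 lower, which differs from all cells in both directions. Without the endothelial and the ureteric cell 0 were higher and 3 lower.

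The genes called between ages were lower at E18.5 in cap cells and higher at E18.5 in mutant cells. In wild-type cap cells, E18.5 was higher than E13.5 for 0 of 9 genes, where 2.53% of 11423 entries were higher, and lower for 4, where 14.5% were lower: Cdkn1c (-2.79, the 24th lowest of all entries tested), Igf2 (-2.21), H19 (-2.13) and Peg3 (-1.40). Plagl1 differed by -0.34. In mutant cells, E18.5 was higher for 7 of 9, where 6.69% of 10872 entries were higher, and lower for 0, where 11.5% were lower. Plagl1 was higher by 4.22, Igf2 by 2.17, Igf2r by 1.99, Cdkn1c by 1.73, Mest by 1.64, H19 by 1.37 and Gnas by 1.28. Pool differs with age in both comparisons and sex in the first, and neither can be told apart from age. The mutant cells also differed in marker profile, as the interstitium score was the higher one in all 44 at E18.5 but in 22 of 29 at E13.5. Their median genes per cell were 3643 and 4560. The part of both in the result was not tested.

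**Figure D2:**
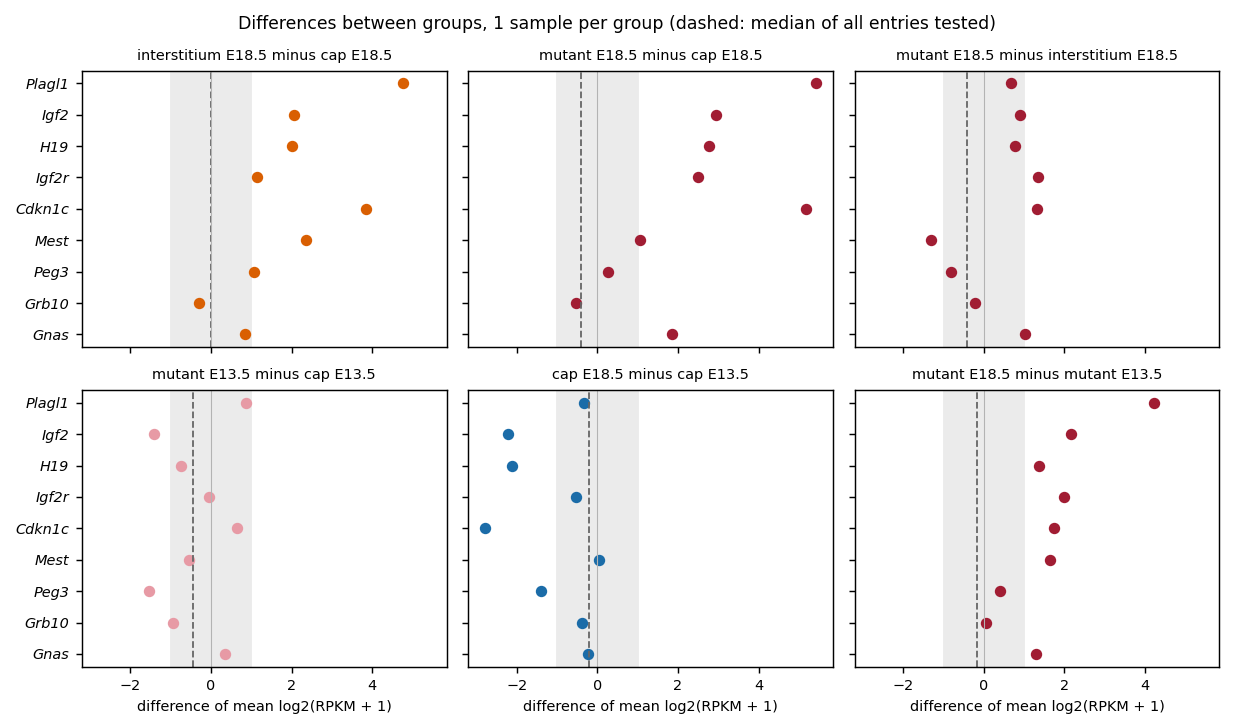
Each panel is 1 comparison; points give the difference of mean log2(RPKM + 1) for each gene, the grey band spans -1 to 1, and the dashed line is the median of all entries tested. Plagl1 and Cdkn1c lie farthest to the right in both comparisons with E18.5 cap cells, and 4 genes lie left of the band when cap cells of the 2 ages are compared.

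The mixed composition of the sorted groups gave a further view of Plagl1. Of the 74 cells labelled E18.5 cap, 7 had the higher interstitium score, and all 7 had Plagl1, at 1.56 to 126 RPKM with a median of 79.9. Of the other 67, 15 reached 1 RPKM and the median was 0. Of the 71 cells labelled interstitium, the 15 whose interstitium score was not the higher one had a median Plagl1 of 14.1 RPKM (0 to 127), against 170.0 (0.162 to 1104) in the other 56. In these wild-type groups of E18.5 Plagl1 was thus higher in the cells with the interstitial profile, with overlapping ranges. Among E13.5 mutant cells the 22 with the higher interstitium score had a median of only 0.702 RPKM, with 10 of 22 positive, against 0.114 and 2 of 7 in the rest. The rho of Plagl1 with the interstitium score was 0.42 in cap and 0.62 in interstitium cells at E18.5, but -0.03 in mutant cells of that age, and at E13.5 0.07 in cap and 0.14 in mutant cells. Cdkn1c followed in the interstitium, with medians of 91.5 RPKM in the 15 and 366 in the 56 cells, and so did Igf2 (30 and 76.8), H19 (180.3 and 343), Igf2r (5.6 and 14.5), Mest (826 and 1362) and Gnas (22.4 and 35.9). Peg3 (117 and 94.7) and Grb10 (59.3 and 28.2) went the other way by median. Their rho with the interstitium score among the 71 cells was still positive, at 0.38 and 0.10, so their direction depends on the measure. In the 7 cap cells Cdkn1c was split, with 5 cells at 1 RPKM or more, a median of 154 and a lowest value of 0. When only wild-type cells with the higher score for their labelled lineage were compared, 7 genes were higher in the interstitium, with Plagl1 at 5.81 and Cdkn1c at 4.39. These were not the same 7 genes as among all cells, since Gnas (1.225) was now called and Peg3 (0.978) was not.

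Plagl1 has been proposed as a common regulator of this group, so its rank correlation (Spearman rho) with each of the others was taken among the cells of each group, as a description without a test. In the 71 interstitium cells Cdkn1c had a rho of 0.66 with Plagl1, the highest of 7673 entries found in 25% of the cells. Igf2 (0.48, the 27th) and H19 (0.43, the 50th) were also near the top, followed by Gnas (0.34), Igf2r (0.33) and Peg3 (0.29), while Mest (0.07) and Grb10 (-0.01) were not. The median over the 8 genes was 0.34 and that over all entries -0.05. The value for Cdkn1c was 0.57 in the 22 cells of pool 2, 0.71 in the 49 of pool 3, 0.65 given the number of genes and 0.54 in the 56 cells with the higher interstitium score. Both genes went with the interstitium score itself, Plagl1 at 0.62 and Cdkn1c at 0.68, and given that score their rho was 0.42. The median over the 8 genes given that score was 0.10. These cells share a title date and a mixed composition.

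In the other groups no value reached that of Cdkn1c in the interstitium. Among 74 E18.5 cap cells H19 had a rho of 0.36, the 6th of 7635 entries, Cdkn1c 0.20, Igf2 0.16 and Gnas 0.14, while the remaining 4 genes lay between -0.10 and -0.02. As 52 of the 74 cells are under 1 RPKM for Plagl1, these values rest on few cells. Among 44 E18.5 mutant cells H19 stood at 0.41 (the 64th of 5498), Grb10 at 0.31, Mest at 0.29, Cdkn1c at 0.25 and Igf2 at 0.04. In the 29 E13.5 mutant cells H19 was at 0.35 (the 536th of 6232) and Peg3 at 0.34 (the 559th), with Cdkn1c at 0.09. Both were under the 95th percentile of all entries in that group, 0.39, where the median was 0.10. In the 18 E13.5 cap cells all 8 lay between -0.15 and 0.27. Whether these values differ between groups was not tested.

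**Figure D3:**
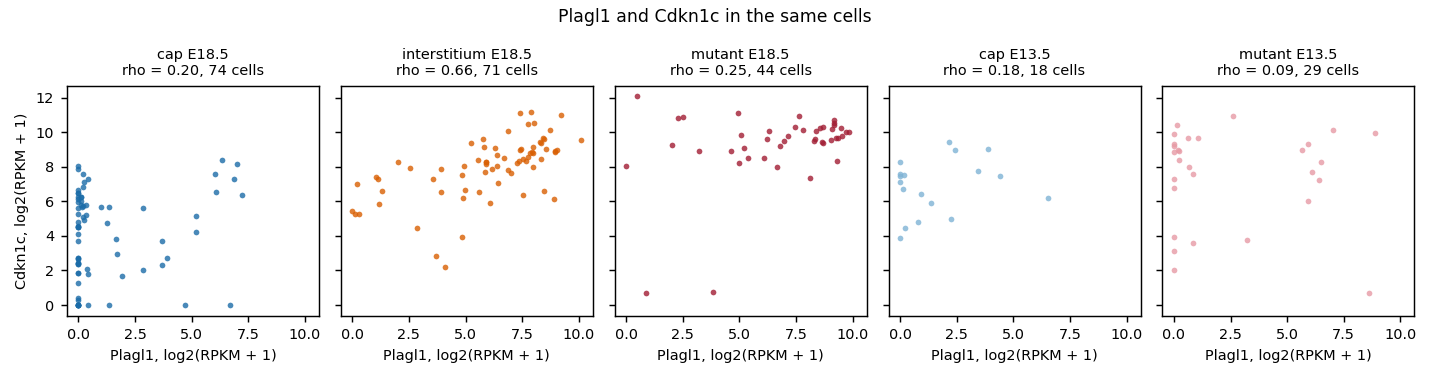
Each point is 1 cell, with Plagl1 on the x axis and Cdkn1c on the y axis, both as log2(RPKM + 1), 1 panel per group. The 71 interstitium cells form a rising cloud (rho 0.66), whereas 42 of 44 E18.5 mutant cells lie in a band of high Cdkn1c at any level of Plagl1.

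**Figure D4:**
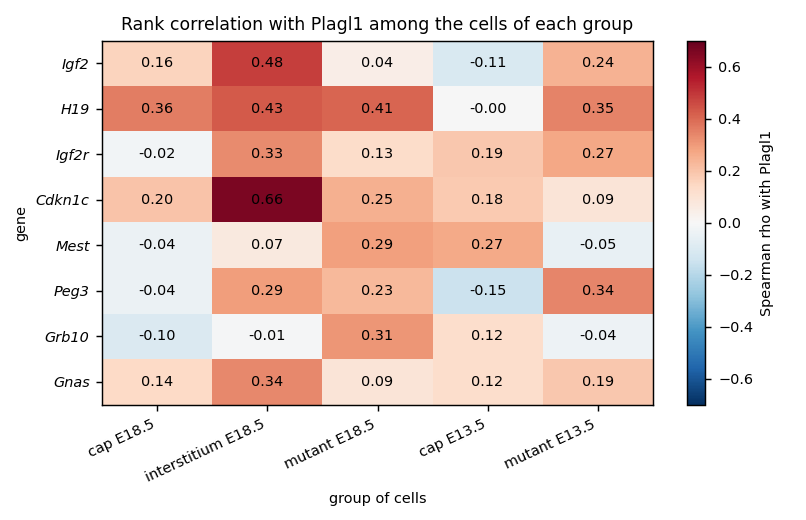
Cells of the grid give Spearman rho between Plagl1 and each of the other 8 genes (y axis) among the cells of each group (x axis), on a colour scale from -0.7 to 0.7. The interstitium column holds the highest value, 0.66 for Cdkn1c, and the H19 line is above 0.3 in 4 of 5 groups. In E13.5 mutant cells, 1 of these groups, the H19 value of 0.35 is under the 95th percentile of all entries, 0.39.

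Among the other pairs, that of Igf2 and H19 and that of Cdkn1c and Mest were above 0.3 in 3 of 5 groups each. Igf2 and H19, neighbours with opposite parental expression, had a rho of 0.41 in cap, 0.55 in interstitium and 0.04 in mutant cells at E18.5, and of 0.40 in cap and 0.29 in mutant cells at E13.5. Cdkn1c and Mest, on different chromosomes, stood at 0.48, 0.23, -0.04, 0.58 and 0.65 in the same order. Of the 36 pairs of the 9 genes, 3, 13, 3, 8 and 8 reached 0.3. Among all pairs of entries the shares that reached 0.3 were 8.02%, 2.71%, 4.65%, 13.51% and 20.41%, so the 13 of 36 in the interstitium stood farthest above the general level of its group. The 3 of 36 in E18.5 cap cells and the 8 of 36 in E13.5 mutant cells are near the general level.

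Over all 5 groups the entries most like Plagl1, by the mean rho over groups among 4385 entries, were Dhrs3 (0.36), a retinaldehyde reductase, Twsg1 (0.33), a BMP-binding protein, H19 (0.31), Mfap2 (0.30), a microfibril protein, App (0.29), Strn3 (0.28), Cdkn1c (0.28) and Gpx8 (0.28). H19 and Cdkn1c were thus the 3rd and 7th of 4385. Igf2r was the 108th, Gnas the 116th, Igf2 the 144th, Peg3 the 308th, Mest the 534th and Grb10 the 1219th. The least like were Sipa1l1 (-0.30), Uimc1 (-0.27), Tcof1 (-0.26) and Chd4 (-0.26). The median over all entries was 0.01 and the 95th percentile 0.15. Each group weighs the same in the mean rho, also the 18 E13.5 cap cells, in which Gpx8 stood at 0.75, App at 0.60 and Strn3 at 0.53. The lowest values of these genes in another group were 0.09, -0.02 and -0.05. Dhrs3 lay between 0.17 and 0.50 in the 5 groups, Cdkn1c between 0.09 and 0.66, and H19 between -0.001 and 0.43.

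Cdkn1c blocks the cell cycle, and its level was set beside cell cycle genes. Between groups, E18.5 mutant cells had the highest Cdkn1c and the lowest S phase and G2 and M phase scores. Among the other groups this order did not hold throughout. S phase scores were 3.97 in both interstitium and cap cells at E18.5, and G2 and M phase scores 3.52 and 3.63. Their Cdkn1c differed by 3.86. E13.5 cap cells had the highest scores (4.84 and 5.655) and a mean Cdkn1c of 6.88, above the 4.09 of E18.5 cap cells. Within groups Cdkn1c and these scores were weakly related. Its rho with the S phase score was -0.01 in cap, -0.18 in interstitium and 0.06 in mutant cells at E18.5, and 0.18 in cap and 0.27 in mutant cells at E13.5, and with the G2 and M phase score -0.09, -0.19, 0.06, 0.31 and 0.07. A list of 12 further inhibitors of the cell cycle was set beside the shares of all entries. Interstitium cells were higher than cap cells for 1 of 9 tested and lower for 1 (11.1% each, against 5.94% and 2.7%). E18.5 mutant cells were higher than cap cells for 1 of 9 (11.1%, against 4.51%). They were lower for 2 (22.2%), close to the 23.2% of all entries. The higher one in the mutant was Btg2 (3.57), an antiproliferative gene of the immediate early response. The lower ones were Cdkn2d (-1.20) and Rbl1 (-1.06). Against interstitium cells 2 of 7 were higher in E18.5 mutant cells (28.6%, against 2.05%) and 1 lower (14.3%, against 23.4%). At E13.5 the mutant was higher for 0 of 8 (against 1.43%) and lower for 1 (12.5%, against 27.7%). With age, cap cells were higher for 1 of 9 (11.1%, against 2.53%) and lower for 0 (against 14.5%). Mutant cells were higher with age for 3 of 8 (37.5%, against 6.69%) and lower for 1 (12.5%, against 11.5%).

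The list of 52 further imprinted genes was set beside the same shares of all entries. Counts are of entries, and Copg2 stands on 2 of them. Between interstitium and cap cells 31 entries of 30 genes were tested, and 7 (22.6%) were higher, against 5.94% of all entries, and 1 (3.23%) lower, against 2.7%. Dcn (3.04), which is also on the interstitium marker list, Sgce (2.02), Cd81 (1.99) and Klf14 (1.94) led, and the lower one was 1 of the 2 entries of Copg2 (-1.01). Between E18.5 mutant and cap cells 8 of 29 entries (27.6%, against 4.51%) were higher, and 8 entries of 7 genes (27.6%, against 23.2%) lower, so that the lower share is near that of all entries. The higher ones were led by the non-coding RNAs Meg3 (5.11) and Rian (4.57) of the Dlk1 locus, Dcn (3.85), Dlk1 itself (3.50) and Klf14 (3.40), and the lower ones by Peg12 (-3.90), Nnat (-2.35) and Nap1l4 (-1.92). Between E18.5 mutant and interstitium cells 4 of 34 were higher (11.8%, against 2.05%), led by Meg3 (3.72) and Rian (3.38), and 6 lower (17.6%, against 23.4%). At E13.5, 1 of 32 was higher in the mutant (3.1%, against 1.43%), namely Nnat (1.2), and 5 were lower (15.6%, against 27.7%). Cap cells at E18.5 were higher than at E13.5 for 0 of 32 (against 2.53%) and lower for 7 (21.9%, against 14.5%). Mutant cells were higher for 6 of 33 (18.2%, against 6.69%) and lower for 5 (15.2%, against 11.5%). The paralogues of Plagl1, Plag1 and Plagl2, were called higher in none of the 6 comparisons, and Plagl2 was lower in E18.5 mutant than in cap (-1.08) and in E13.5 mutant cells (-1.29).

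The partners of Igf2 in the insulin-like growth factor pathway were set beside the same shares. Of 18 tested genes of a list of 20, interstitium cells were higher than cap cells for 8 (44.4%, against 5.94% of all entries). They were lower for 0, against 2.7%. Among the higher ones were the binding proteins Igfbp3 (2.73), Igfbp6 (2.72), Igfbp5 (2.39) and Igfbp4 (2.0), the kinase subunit gene Pik3r1 (2.13) and the related ligand Igf1 (1.96). E18.5 mutant cells were higher than cap cells for 4 of 18 (22.2%, against 4.51%) and lower for 3 (16.7%, against 23.2%), with Igf1 at 2.87, Pik3r1 at 2.74 and Igf2bp1, an Igf2 mRNA-binding protein, at -1.79. They were higher than interstitium cells for 0 (against 2.05%) and lower for 7 of 18 (38.9%, against 23.4%). Of these 7, 5 were binding proteins from Igfbp6 (-1.73) to Igfbp7 (-1.25). The receptor gene Igf1r was called in none of the 6 comparisons, its differences lying between -0.78 and 0.12. At E13.5 the mutant was higher for 1 of 14 (7.14%, against 1.43%), namely Pik3r1 (1.04). It was lower for 4 (28.6%), a share close to the 27.7% of all entries. The lower ones were led by the kinase Akt1 (-1.91), Igf2bp3 (-1.42) and Igf2bp1 (-1.24). With age, cap cells were higher for 3 of 16 (18.8%, against 2.53%) and lower for 3 (18.8%, against 14.5%), with Igfbp5 at 3.55, Igf2bp3 at -3.66 and Akt1 at -2.05. Mutant cells were higher for 5 of 18 (27.8%, against 6.69%) and lower for 2 (11.1%, against 11.5%), with Igfbp5 at 4.84 and Igf2bp1 at -2.39.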

How the data were processed

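Each of the 237 samples is 1 cell. The authors deposited 1 table of RPKM, read numbers normalised for transcript length and for the depth of each cell. TopHat and the build mm10 are named in the submitters' processing notes; versions, gene models, strand and counting rule are not given in the sources used here, and no column of another sample was present (0). RPKM gave no read steps (a median of 6.39% of values in the fullest bin over 223 pairs of cells), so depth is unknown. Groups follow the labels for source, genotype and age, and 1 cell with conflicting labels was left out. No 2 cells shared values (highest correlation 0.809). No label names an embryo, so each group is 1 sample and nothing was tested. Means of log2(RPKM + 1), with a pseudocount of 1, were compared over entries detected (1 RPKM or more) in 10% of cells of either group and called at 1 log2 unit. Correlations used entries at 1 RPKM or more in 25% of a group's cells. Scripts were tested on simulated data (Python 3.11.15, numpy 2.4.6, pandas 2.3.3, scipy 1.17.1, matplotlib 3.10.9). No doublet caller was used.

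The members and gene lists were chosen with earlier results of these data known, and each list was described by counts and its median. Named are the members, the 8 entries most and the 4 least like Plagl1 by mean rho, and from the lists of other imprinted genes, the IGF pathway, the Plag family and cell cycle inhibitors those with a difference of 1 log2 unit or more, largest first; Igf1r and the paralogue Plag1 were named outside this rule. Alternatives were other pseudocounts (0.1 and 10), 2 scalings, group mean RPKM, gene number and pool. Added after the data were seen were alternatives without the 3 cells of other lineages, with 4000 to 6000 genes, with cells of the matching marker profile and with rho given the interstitium score.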

Additional observations from a re-analysis of the deposited data

Results flagged for a closer look

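Igf2 differed in sign between ages: E18.5 mutant minus cap cells gave 2.96 log2 units, and the same contrast at E13.5 gave -1.42. By group mean RPKM the E13.5 value is 0.058. Between E18.5 and E13.5, 3 genes went one way in cap cells and the other way in mutant cells: Igf2 by -2.21 and 2.17, H19 by -2.13 and 1.37, and Cdkn1c by -2.79 and 1.73. These differences between contrasts were not tested, as each group is 1 sample.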

How the results depend on the processing

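No paired analysis was possible because cells of different groups share no embryo, number or other pairing in the labels. Of 495 differences of single genes under alternatives 486 moved by less than the spread between cells, 6 moved and 3 reversed. That spread is wide, so the 486 include large shifts and changed calls. Plagl1 in interstitium minus cap cells (spread 2.375) fell from 4.755 to 2.7 with a pseudocount of 10. Peg3 in E18.5 mutant minus cap cells rose from 0.26 to 1.10 by group mean RPKM. Of 184 values of rho with Plagl1 152 moved by less than 0.1. The reversed values were Igf2 in E13.5 mutant minus cap cells at 0.058 by group mean RPKM, and, among cells with 3000 to 5000 genes, Peg3 at 0.10 in the same comparison and at 0.13 in cap cells at E18.5 minus E13.5; that setting leaves 2 E13.5 cap cells. The counts of genes called for E18.5 mutant minus interstitium cells were 2 with a pseudocount of 10, 2 by group mean RPKM and 2 with cells of the matching marker profile, but 6 with median-ratio scaling and 5 each with a pseudocount of 0.1 and among cells with 4000 to 6000 genes, against 4. For E13.5 mutant minus cap cells they were 1 with a pseudocount of 10, 3 (2 higher) by group mean RPKM and 5 among cells with 3000 to 5000 genes, against 2, and for cap cells between ages 7 in that gene range, against 4. The median rho of Plagl1 with the other genes in interstitium cells was 0.10 given the interstitium score, against 0.34. The causes of the other changes were not tested. All counts for interstitium minus cap, E18.5 mutant minus cap and mutant cells between ages stayed within 1.5 times the value reported under the alternatives run. Depth is unknown, so a gene listed at 0 in a cell may be present below detection.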

Other observations

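The cell left out of the groups, an E13.5 wild-type cell called cap mesenchyme by its source name and interstitial by its cell type, had 6570 genes at 1 RPKM or more. Its values were 0.143 RPKM for Plagl1, 56.6 for Igf2, 173 for H19, 13.46 for Igf2r, 46.9 for Cdkn1c, 392 for Mest, 169 for Peg3, 22.4 for Grb10 and 9 for Gnas.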
